A study of Mus musculus with 12 samples.

Results

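The imprinted growth regulators are 10 genes that are read mainly from the copy inherited from 1 parent and that set the size of the mouse embryo and its placenta: Igf2, H19, Peg3, Peg10, Phlda2, Cdkn1c, Mest, Dlk1, Meg3 and Grb10. Their members on the array were all probe sets (groups of short probes against 1 transcript) whose only gene symbol in the platform's probe-gene table was one of these names. This gave 27 of 45037 probe sets, for 9 of the 10 genes. Meg3 had 11 probe sets, Peg3 had 5, Grb10 had 3, Igf2 and Dlk1 had 2 each, and Peg10, Phlda2, Cdkn1c and Mest had 1 each. H19 had none, because its only probe set lists 2 gene symbols, so no value is given for it.

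Mouse embryos at embryonic day 8.0 that were wild type or mutant for ER71, the ETS transcription factor encoded by Etv2, were digested with trypsin and sorted by flow cytometry into EYFP-positive and EYFP-negative cells. Total RNA of each of the 4 groups (wild-type negative, wild-type positive, mutant negative, mutant positive) was amplified 2 times and hybridised to 3 arrays, 12 in all, numbered 1 to 3 in each group. All 4 groups came from 1 line of mixed C57BL/6 and FVB background that carried EYFP. The labels do not say what drives EYFP, which part of Etv2 the mutant allele lacks, or whether the arrays of a group came from separate embryos or pools, so p-values reflect variation among these arrays only, and part of it may be technical.

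Imprinted genes carry methylation marks set in the egg or the sperm, and the marked copy of a gene or of its control region determines which parental copy is read. As background, genes read from the father's copy tend to promote growth of the embryo: Igf2 encodes a growth factor, Dlk1 a membrane and secreted protein related to Notch ligands, Mest a hydrolase-like protein of mesoderm, Peg3 a zinc finger protein, and Peg10 a retrotransposon-derived protein needed in the placenta. Genes read from the mother's copy tend to restrain growth: Cdkn1c encodes a cyclin-dependent kinase inhibitor, Phlda2 a small pleckstrin homology protein that limits placental growth, and Grb10 an adaptor that dampens insulin and IGF receptor signalling, while Meg3 and H19 are non-coding RNAs. ER71 is required for the first endothelial and blood cells of the embryo.

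All values are log2 expression values as deposited, so a difference of 1 is a 2-fold difference, and they rank arrays for a probe set but not genes against each other. The arrays had medians of 6.98 to 7.06 and 25th percentiles of 5.62 to 5.69. Etv2 read 10.70 to 11.36 on the wild-type positive arrays, 7.50 to 7.85 on the wild-type negative arrays and 7.24 to 7.49 on the 6 mutant arrays. Of the 17 endothelial markers, all 17 rose with the sort in the wild types, and their mean was 9.86 to 10.14 on wild-type positive arrays, 7.12 to 7.24 on mutant positive arrays and 6.67 to 6.85 on the negative arrays. Cdh5, the endothelial cadherin, was at most 5.09 on every array outside the wild-type positive group, so this defining marker was near the lowest values on the mutant positive arrays. With the sort in the mutants 2 of the 17 endothelial markers rose: Kdr, a VEGF receptor also present in early mesoderm, from a mean of 9.22 to 11.79 (adjusted p = 0.000141), and Tek, the angiopoietin receptor, from 7.62 to 9.66 (adjusted p = 0.00334). The mean of 12 erythroid markers was 9.66 to 10.29 on wild-type positive arrays and 6.05 to 6.12 on mutant positive arrays. The mean of 10 cardiac markers was 9.37 to 10.12 on wild-type positive and 11.41 to 11.64 on mutant positive arrays, and that of 11 lateral plate and allantois markers was 8.80 to 9.05 and 9.91 to 10.12. Both wild-type arrays numbered 1 stood apart in Xist, the X-inactivation RNA, at 8.19 (negative) and 10.33 (positive), beside 13.36 to 13.98 on the other 10 arrays. The mutant positive and wild-type positive groups differed in marker genes of several cell types, and in such bulk samples fewer cells of a type and less RNA per cell cannot be told apart.

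Among the imprinted growth regulators, Igf2, Dlk1 and Mest rose in EYFP-positive over EYFP-negative cells in both genotypes, and Peg3, Peg10 and Cdkn1c passed the test in the mutants but not in the wild types. When the sort differences of the 2 genotypes were tested against each other, only that of Dlk1 passed. In limma fits across all probe sets, with Benjamini-Hochberg adjustment and a threshold of 0.05, 4 of the 27 probe sets (14.8%) rose with the sort in the wild types, beside 2.76% of all probe sets, and none fell. In the mutants 8 of the 27 (29.6%) rose and none fell, beside 1.55% of all probe sets. With the shared number of the mutant positive and negative arrays as a block, 16 of the 27 (59.3%) rose in the mutants. The same 8 were among them, and 2.5% of all probe sets were called higher there in that fit. With the block in the wild types, 7 of the 27 (25.9%) rose, the same 4 among them. There the count of all probe sets called higher went from 1242 to 1679. Meg3 probe sets made 6 of the blocked calls in the mutants and 3 in the wild types. By gene, at the brightest probe set, 3 of 9 rose in the wild types (Igf2, Mest and Dlk1), beside 3.84% of all genes. In the mutants 6 of 9 rose (these and Peg3, Peg10 and Cdkn1c), beside 2.37% of all genes. With the block 7 of 9 rose in the mutants, beside 3.53% of all genes called higher in that fit. In the wild types the count with the block stayed at 3 of 9. The median difference over the 27 probe sets was 0.25 in the wild types and 0.86 in the mutants, beside -0.01 and -0.03 over all probe sets.

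Setting the positive cells of mutants against those of wild types asks what differs in the sorted cells when ER71 is mutated. There 3 of the 27 (11.1%) were called higher and none lower, beside 2.08% of all probe sets called higher: both Dlk1 probe sets and the brightest of Grb10. On 10 of the 27 (37.0%) all 3 mutant positive arrays lay above all 3 wild-type positive arrays, beside 10.6% of all probe sets. The median difference was 0.43, beside -0.01 over all probe sets. Between the EYFP-negative cells of the 2 genotypes, 0 of the 27 were called by limma and 3 had an unadjusted p under 0.05, beside 0% of all probe sets called, 2119 of which had an unadjusted p under 0.05. The comparisons with wild-type positive arrays share those arrays, so the wild-type sort difference and the mutant-minus-wild-type difference are not independent of each other.

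**Figure D1:**
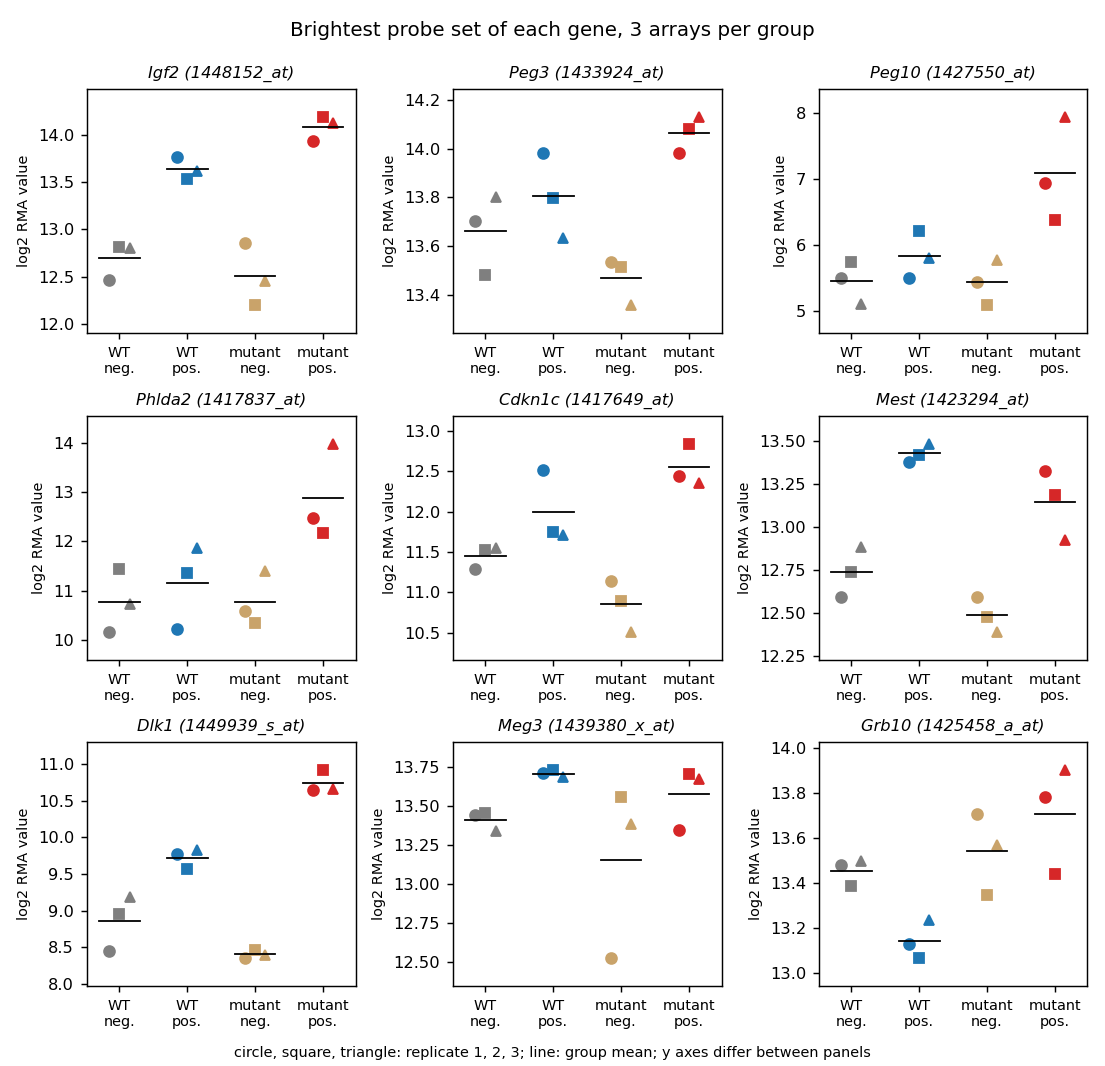
Log2 expression on each of the 12 arrays (points) for the brightest probe set of each of the 9 genes, with the mean of the 3 arrays of a group as a bar, and the 4 groups along the horizontal axis. Igf2, Dlk1, Mest, Cdkn1c and Peg10 have their 3 mutant positive arrays above all 3 mutant negative arrays, and the Dlk1 mutant positive arrays at 10.65 to 10.92 lie above all other arrays.

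Dlk1 had the largest difference of the 27 probe sets, 2.34 on the log2 scale with the sort in the mutants, and its promoter is shown with those of Igf2 and Mest because these 3 genes rose with the sort in both genotypes. Each sequence is the 250 bases upstream of a start site, 5′ to 3′ on the gene's strand, from RefSeq for the assembly GRCm38.p6, and of the starts listed for a gene the window with the most CG dinucleotides is printed. The capitals mark GGAA and its reverse complement TTCC, the core letters bound by ETS factors such as ER71, searched on both strands. The Dlk1 window lies at chr12:109452573-109452822 on the plus strand, the Igf2 window at chr7:142658805-142659054 on the minus strand, and the Mest window at chr6:30737800-30738049 on the plus strand.
Dlk1: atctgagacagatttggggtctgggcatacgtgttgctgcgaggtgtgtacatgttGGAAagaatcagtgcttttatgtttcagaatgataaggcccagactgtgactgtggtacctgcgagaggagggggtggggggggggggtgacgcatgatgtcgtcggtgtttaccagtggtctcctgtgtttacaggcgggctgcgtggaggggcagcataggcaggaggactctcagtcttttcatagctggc
Igf2: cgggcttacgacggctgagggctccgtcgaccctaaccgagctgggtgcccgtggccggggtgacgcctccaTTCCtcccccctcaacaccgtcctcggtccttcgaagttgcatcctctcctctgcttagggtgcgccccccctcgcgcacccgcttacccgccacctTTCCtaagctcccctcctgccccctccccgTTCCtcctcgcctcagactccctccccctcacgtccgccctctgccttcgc
Mest: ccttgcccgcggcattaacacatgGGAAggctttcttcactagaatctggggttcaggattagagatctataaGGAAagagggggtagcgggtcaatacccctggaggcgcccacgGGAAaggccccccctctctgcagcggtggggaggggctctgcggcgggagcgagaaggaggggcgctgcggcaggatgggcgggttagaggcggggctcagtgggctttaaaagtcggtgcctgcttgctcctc
The Dlk1 window holds 1 such match, and those of Igf2 and Mest hold 3 each. The 4-letter core is in 93.4% of the 32851 windows of this length in the table, so its presence sets these genes apart from none. The longer CCGGAA, which contains the core, is in 12.0% of all windows and in 1 of the 14 windows listed for the 7 genes with an entry, a Meg3 window, and not in the 3 printed here. The windows hold 8, 22 and 14 CG dinucleotides for Dlk1, Igf2 and Mest, the most among each gene's listed windows by the choice made. The other Igf2 windows hold 10, 6 and 1, and the other Mest windows 14 and 7.

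Dlk1, whose protein marks early mesenchyme and precursor cells, rose in EYFP-positive cells of both genotypes and was 2.03-fold higher in mutant than in wild-type positive cells. Its brighter probe set, 1449939_s_at, read 8.44, 8.95 and 9.18 on wild-type negative arrays 1 to 3 and 9.77, 9.56 and 9.83 on wild-type positive arrays. It read 8.35, 8.46 and 8.39 on mutant negative and 10.65, 10.92 and 10.66 on mutant positive arrays. The mutant positive arrays were the highest, the wild-type positive arrays came next without overlap, and the 2 negative groups overlapped.

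The rise of Dlk1 with the sort was 0.86 ± 0.17 on the log2 scale (SE, 3 arrays a group, 1.81-fold, adjusted p = 0.0132) in the wild types and 2.34 ± 0.17 (5.07-fold, adjusted p = 0.000212) in the mutants. Mutant positive exceeded wild-type positive cells by 1.02 ± 0.17 (adjusted p = 0.00552), while the negative cells differed by -0.46 ± 0.17 with mutants lower (adjusted p = 0.976). The difference of the 2 sort differences was itself 1.48 ± 0.24 (2.79-fold, adjusted p = 0.0101), the only one of the 27 called, beside 0.38% of all probe sets called in that direction. The wild-type rise missed the threshold when array 3 of the wild-type positives was omitted (0.81, adjusted p = 0.0511), with only the wild-type arrays in the fit (adjusted p = 0.0664) and without both wild-type arrays numbered 1 (0.63, adjusted p = 0.0768), and the difference between genotypes lost it without both mutant arrays numbered 1 (1.50, adjusted p = 0.0559).

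The dimmer Dlk1 probe set, 1442724_at, stayed near the arrays' 25th percentile. It read 6.70, 6.56 and 6.44 on mutant positive arrays and 5.70 to 6.16 on all other arrays, so the mutant positive group stood above the rest here too. The rise over wild-type positive cells was 0.68 ± 0.14 (adjusted p = 0.0185), a call that did not hold when either of wild-type positive arrays 1 and 3, or either of mutant positive arrays 1 and 2, was omitted (adjusted p 0.0554 to 0.0749). Its sort difference was -0.02 ± 0.14 in the wild types (adjusted p = 0.969) and 0.53 ± 0.14 in the mutants (adjusted p = 0.0792). The latter passed without wild-type positive array 2 (adjusted p = 0.0421).

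Igf2, the fetal insulin-like growth factor and the ligand of the type 1 IGF receptor, rose with the sort in both genotypes at both of its probe sets. Probe set 1448152_at read 12.47, 12.81 and 12.80 on wild-type negative and 13.77, 13.54 and 13.62 on wild-type positive arrays. It read 12.86, 12.20 and 12.46 on mutant negative and 13.94, 14.19 and 14.13 on mutant positive arrays. All positive arrays lay above all negative arrays, and all mutant positive arrays above all wild-type positive arrays. The rise was 0.95 ± 0.16 (1.93-fold, adjusted p = 0.00691) in the wild types and 1.58 ± 0.16 (2.99-fold, adjusted p = 0.000792) in the mutants. Between the positive cells of the genotypes it differed by 0.44 ± 0.16 (adjusted p = 0.182), and the sort differences by 0.63 ± 0.23 (adjusted p = 0.351), so neither of these passed.

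The dimmer Igf2 probe set, 1415931_at, gave a similar order at a lower level. It read 6.65, 7.57 and 7.18 on wild-type negative, 8.67, 8.42 and 8.64 on wild-type positive, 7.32, 7.08 and 7.20 on mutant negative and 8.96, 8.83 and 8.97 on mutant positive arrays. The rise was 1.44 ± 0.19 (2.72-fold, adjusted p = 0.00108) in the wild types and 1.72 ± 0.19 (3.29-fold, adjusted p = 0.00106) in the mutants, and neither call was lost under any alternative run. At 1448152_at the mutant call was also kept throughout, while the wild-type call was lost without both wild-type arrays numbered 1 (0.77, adjusted p = 0.106). The visceral endoderm is a tissue rich in Igf2 as background. Afp, its alpha-fetoprotein gene, read 9.34 to 11.06 on the 6 negative arrays, 4.29 to 4.34 on the wild-type positive arrays, and 11.98, 5.02 and 4.03 on the mutant positive arrays. Without mutant positive array 1, the array with high Afp among the positives, the mutant rise was 1.65 at 1448152_at (adjusted p = 0.00216) and 1.70 at 1415931_at (adjusted p = 0.00449). The part of endoderm on the negative arrays in the sort difference was not tested.

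Mest, a gene of embryonic mesoderm, rose by like amounts with the sort in both genotypes. It read 12.59, 12.74 and 12.88 on wild-type negative, 13.38, 13.42 and 13.48 on wild-type positive, 12.59, 12.47 and 12.39 on mutant negative and 13.32, 13.19 and 12.92 on mutant positive arrays. The wild-type positive arrays were the highest of the 12, above the mutant positive arrays without overlap. The rise was 0.69 ± 0.12 (1.61-fold, adjusted p = 0.00691) in the wild types and 0.66 ± 0.12 (1.58-fold, adjusted p = 0.0150) in the mutants. The sort differences differed by -0.03 ± 0.17 between genotypes (adjusted p = 0.984), and the positive cells by -0.28 ± 0.12 with mutants lower (adjusted p = 0.248). The mutant call was lost without mutant negative array 2 or 3, or mutant positive array 1 or 2 (adjusted p 0.0530 to 0.0644), with only the mutant arrays in the fit (adjusted p = 0.0906) and without both mutant arrays numbered 1 (adjusted p = 0.0734), and the wild-type call without both wild-type arrays numbered 1 (0.64, adjusted p = 0.0753).

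**Figure D2:**
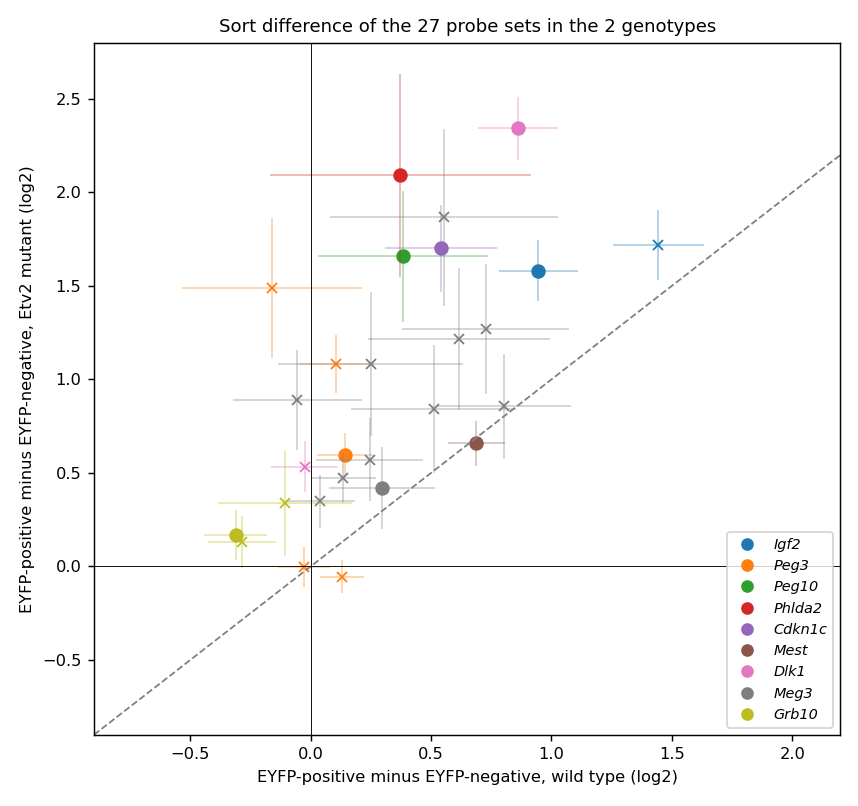
Positive-minus-negative difference in log2 expression in the wild types (horizontal axis) and in the mutants (vertical axis) for each of the 27 probe sets, with the line of equal differences. Of the 27 points, 25 lie above the line, Dlk1 at 0.86 and 2.34 being the only one whose distance from it passed the test, and Mest at 0.69 and 0.66 lies just below it. Circles are the brightest probe set of a gene, crosses the others, and bars standard errors.

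Peg3, a zinc finger protein of brain and mesoderm, rose with the sort in the mutants at 2 of its 5 probe sets and at none in the wild types. The brightest, 1433924_at, read 13.70, 13.48 and 13.80 on wild-type negative, 13.98, 13.80 and 13.63 on wild-type positive, 13.54, 13.51 and 13.36 on mutant negative and 13.98, 14.08 and 14.13 on mutant positive arrays. The wild-type groups overlapped and the mutant groups did not. The rise in the mutants was 0.59 ± 0.12 (1.51-fold, adjusted p = 0.0233), beside 0.14 ± 0.12 in the wild types (adjusted p = 0.685). These sort differences differed by 0.45 ± 0.17 between genotypes (adjusted p = 0.357). The mutant call was lost without mutant negative array 2 or 3 or mutant positive array 2 or 3 (adjusted p 0.0632 to 0.0955), with only the mutant arrays in the fit (adjusted p = 0.0553) and without both mutant arrays numbered 1 (adjusted p = 0.0848).

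The second Peg3 probe set, 1417355_at, gave a firmer difference. It read 12.79, 12.84 and 12.95 on wild-type negative, 13.20, 12.93 and 12.76 on wild-type positive, 12.26, 12.39 and 12.45 on mutant negative and 13.11, 13.55 and 13.70 on mutant positive arrays. The rise in the mutants was 1.08 ± 0.16 (2.12-fold, adjusted p = 0.00441) and its call was kept under all alternatives run, while the wild-type difference was 0.11 ± 0.16 (adjusted p = 0.851). The difference between these 2 sort differences was 0.97 ± 0.22 with an adjusted p of 0.0710, and it passed without wild-type positive array 1 (adjusted p = 0.0455), without mutant positive array 1 (adjusted p = 0.0162) and without both mutant arrays numbered 1 (adjusted p = 0.0448).

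The other Peg3 probe sets were dimmer. Probe set 1417356_at read 7.45, 7.96 and 8.26 on wild-type negative, 8.10, 7.56 and 7.53 on wild-type positive, 8.30, 7.19 and 7.30 on mutant negative and 9.48, 9.46 and 8.31 on mutant positive arrays. It differed by 1.49 ± 0.37 with the sort in the mutants, with an adjusted p of 0.0714, and of 0.0419 with the replicate block. This difference also passed with dim probe sets left out (adjusted p = 0.0473), without mutant negative array 1 (0.031) and without mutant positive array 3 (0.0219). Probe sets 1447731_at and 1447732_x_at read 4.11 to 4.46 on all arrays, below every array's 25th percentile, and were called in no comparison.

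Peg10, a placental gene derived from a retrotransposon, was dim at its only probe set and rose with the sort in the mutants. It read 5.51, 5.75 and 5.11 on wild-type negative, 5.50, 6.21 and 5.80 on wild-type positive, 5.44, 5.09 and 5.77 on mutant negative and 6.95, 6.38 and 7.94 on mutant positive arrays. The mutant positive arrays were the 3 highest of the 12, and the other 3 groups overlapped at values around the arrays' 25th percentile, so no fold is given. The rise was 1.66 ± 0.35 (adjusted p = 0.0334, with the replicate block adjusted p = 0.00520), and the difference from wild-type positive cells was 1.25 ± 0.35 (adjusted p = 0.0790). The latter passed with 1 probe set per gene (adjusted p = 0.0495), with the mean per gene (0.0436) and without mutant positive array 2 (0.0306). The sort difference in the wild types was 0.38 ± 0.35 (adjusted p = 0.724), and the sort differences differed by 1.27 ± 0.50 between genotypes (adjusted p = 0.401). The rise in the mutants lost its call without wild-type negative array 1, any 1 mutant negative array, or mutant positive array 1 or 3 (adjusted p 0.0550 to 0.126), with only the mutant arrays in the fit (adjusted p = 0.146), and without both arrays numbered 1 of the wild types (adjusted p = 0.0671) or of the mutants (adjusted p = 0.149).

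Among the genes read from the mother's copy, Cdkn1c, the cyclin-dependent kinase inhibitor p57, was 3.25-fold higher in positive than in negative mutant cells. It read 11.29, 11.52 and 11.55 on wild-type negative, 12.52, 11.75 and 11.71 on wild-type positive, 11.14, 10.89 and 10.51 on mutant negative and 12.45, 12.84 and 12.36 on mutant positive arrays. The 2 positive groups overlapped only through wild-type positive array 1, and the mutant negative arrays were the lowest of the 12. The rise in the mutants was 1.70 ± 0.23 (adjusted p = 0.00326), kept under all alternatives run, and the wild-type difference was 0.54 ± 0.23 (adjusted p = 0.299). The difference between genotypes, 1.16 ± 0.33, had an adjusted p of 0.173, and without wild-type positive array 1 it was 1.42 (adjusted p = 0.0324).

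Phlda2, an inhibitor of placental growth from the same imprinted domain as Cdkn1c, had its highest values on mutant positive arrays but varied within every group. It read 10.17, 11.44 and 10.72 on wild-type negative, 10.23, 11.35 and 11.87 on wild-type positive, 10.60, 10.34 and 11.40 on mutant negative and 12.47, 12.17 and 13.98 on mutant positive arrays. The 3 mutant positive arrays lay above the other 9. The difference with the sort in the mutants was 2.09 ± 0.54 (4.26-fold) with an adjusted p of 0.0806, which became 2.09 ± 0.25 and 0.00574 with the replicate block. It also passed with 1 probe set per gene (adjusted p = 0.0441) and with the mean per gene (0.0384). The difference from wild-type positive cells was 1.73 ± 0.54 (adjusted p = 0.113), and that with the sort in the wild types 0.37 ± 0.54 (adjusted p = 0.850). The sort differences differed by 1.72 ± 0.77 between genotypes (adjusted p = 0.505).

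Phlda2 and Peg10 were both highest on mutant positive array 3, and so was Plac1, a trophoblast gene, chosen after its values were seen, which read 10.21, 9.61 and 12.17 on the mutant positive arrays, 9.27, 9.60 and 10.86 on the wild-type positive arrays and 7.75 to 8.64 on the negative arrays. The mean of 10 measured trophoblast markers of a list of 12 was 8.32 to 8.47 on mutant positive, 8.0 to 8.06 on wild-type positive, 8.24 to 8.48 on mutant negative and 8.16 to 8.29 on wild-type negative arrays. With the sort in the mutants 1 of the 10 rose, Krt8 by 1.13 ± 0.18 (adjusted p = 0.00655), beside 2.37% of all genes. There 1 fell, Tfap2c, with a difference of -3.05 ± 0.23 (adjusted p = 0.00024), beside 1.74%, and the median of the 10 was -0.14. Tfap2c also fell in the wild types (-2.77 ± 0.23), and Krt8 and Krt18 were higher in mutant than in wild-type positive cells. The part of such cells in the Phlda2 and Peg10 values was not tested.

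Grb10, the adaptor that restrains IGF and insulin receptor signalling, was bright on all arrays and 1.48-fold higher in mutant than in wild-type positive cells. Probe set 1425458_a_at read 13.48, 13.39 and 13.50 on wild-type negative, 13.13, 13.07 and 13.24 on wild-type positive, 13.71, 13.35 and 13.57 on mutant negative and 13.78, 13.44 and 13.90 on mutant positive arrays. The wild-type positive arrays were the 3 lowest of the 12 and the other 3 groups overlapped. The difference between the positive groups was 0.56 ± 0.13 (adjusted p = 0.0371), that with the sort -0.31 ± 0.13 in the wild types (adjusted p = 0.291) and 0.17 ± 0.13 in the mutants (adjusted p = 0.760). The call was lost when any of 9 of the 12 arrays was left out (the exceptions were mutant negative arrays 1 and 2 and mutant positive array 2), with adjusted p 0.0530 to 0.119, with only the 2 positive groups in the fit (adjusted p = 0.127) and without both arrays numbered 1 of the wild types (adjusted p = 0.132) or of the mutants (adjusted p = 0.114). The remaining probe sets differed by 0.31 ± 0.28 and 0.43 ± 0.14 between the positive groups (adjusted p = 0.625 and 0.127). The latter passed without wild-type positive array 3 (adjusted p = 0.0372).

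Meg3, the non-coding RNA of the Dlk1 domain that is read from the mother's copy while Dlk1 is read from the father's, was called at none of its 11 probe sets in any of the 5 comparisons in the limma fit of all 12 arrays and 4 groups without a block. With the sort, 10 of the 11 had an unadjusted p under 0.05 in the mutants and 1 in the wild types. Of all 45037 probe sets, 5159 and 6727 had such a p in these comparisons. The brightest, 1439380_x_at, read 13.44, 13.46 and 13.34 on wild-type negative, 13.71, 13.73 and 13.68 on wild-type positive, 12.52, 13.56 and 13.38 on mutant negative and 13.35, 13.71 and 13.68 on mutant positive arrays. Mutant negative array 1 was the lowest of the 12, and mutant positive array 1 the lowest of the positives. The sort difference was 0.29 ± 0.22 (adjusted p = 0.638) in the wild types and 0.42 ± 0.22 (adjusted p = 0.543) in the mutants, and the latter was 0.10 (adjusted p = 0.853) without mutant negative array 1.

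Over the 11 Meg3 probe sets the sort difference ranged from -0.05 to 0.80 in the wild types and from 0.35 to 1.87 in the mutants, and was above 0 at 10 and at 11 of them. Mutant negative array 1 was the lowest array at 10 of the 11, and its median deviation from the probe sets' means was -0.89, beside -0.32 to 0.68 on the other arrays. With the replicate block, which compares mutant arrays of the same number, 6 of the 11 were called in the mutants, beside 2.5% of all probe sets called higher in that fit. Probe set 1436713_s_at read 7.34, 7.75 and 7.83 on wild-type negative, 7.78, 8.21 and 8.58 on wild-type positive, 6.61, 7.83 and 6.00 on mutant negative and 8.30, 9.62 and 8.12 on mutant positive arrays. Probe set 1426758_s_at read 9.97, 10.49 and 10.34 on wild-type negative, 10.78, 11.26 and 10.94 on wild-type positive, 9.50, 10.52 and 10.38 on mutant negative and 10.59, 11.92 and 11.68 on mutant positive arrays. In both, each mutant positive array lay above the mutant negative array of its number. Of the 6, 1436713_s_at rose most, by 1.87 ± 0.12 (block adjusted p = 0.00135, without the block 0.0734), then 1426758_s_at by 1.27 ± 0.10 (block adjusted p = 0.00182, without the block 0.101) and 1452183_a_at by 1.22 ± 0.09 (block adjusted p = 0.00157, without the block 0.166). The other 3 were 1452906_at at 1.08 (block adjusted p = 0.00855, without the block 0.246), 1452905_at at 0.84 (0.0419 and 0.348) and 1429257_at at 0.57 (0.0488 and 0.309). Some limma fits without the block also made calls in the mutants: 1426758_s_at without mutant positive array 1 (1.67, adjusted p = 0.0172) and without both mutant arrays numbered 1 (1.35, adjusted p = 0.0181), 1436713_s_at without mutant negative array 2 (2.38, adjusted p = 0.0218) and with dim probe sets left out (adjusted p = 0.0478), and the mean of the 11 (0.89, adjusted p = 0.0248). In the wild types 1452905_at was called with only the wild-type arrays in the fit (0.51, adjusted p = 0.0347) and without both mutant arrays numbered 1 (adjusted p = 0.0283), and 1426758_s_at in the latter fit (0.73, adjusted p = 0.0488). At 1436713_s_at the lowest of the 12 arrays was mutant negative array 3, the exception among the 11. These 11 probe sets report on 1 gene in the same RNA samples, so they are not replicates of each other.

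**Figure D3:**
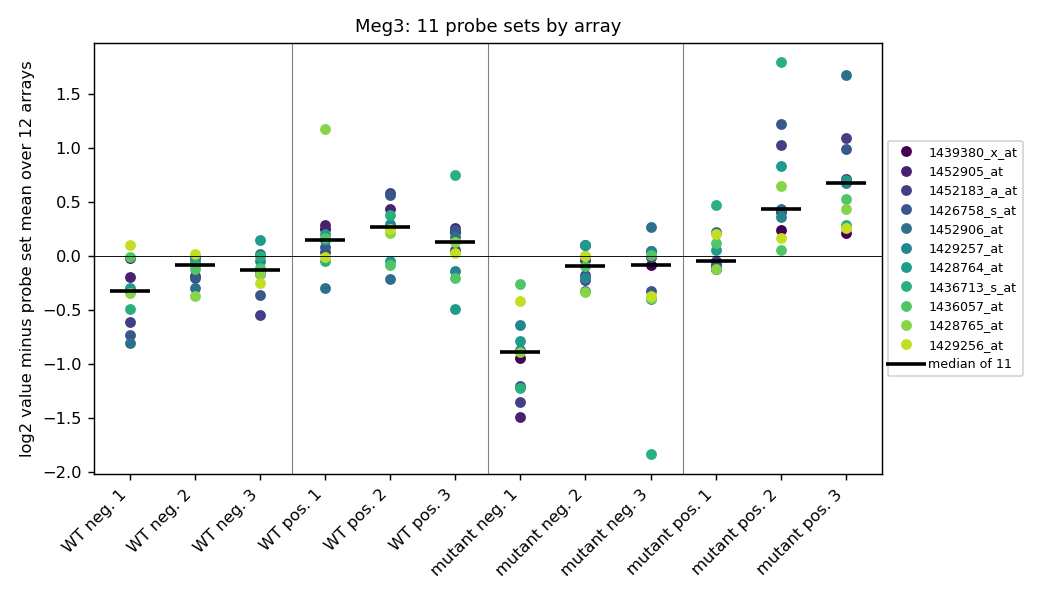
Deviation of each of the 11 Meg3 probe sets (points) from its own mean over the 12 arrays, in log2 units, for each array along the horizontal axis. The black bars are medians of the 11. Mutant negative array 1 lies lowest at 10 of the 11, with a median deviation of -0.89.

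In EYFP-negative cells the 2 genotypes were not separated at any member by the limma test. All 3 mutant negative arrays lay below all 3 wild-type negative arrays at 2 of the 27 probe sets (7.41%), beside 4.56% of all probe sets: Cdkn1c, with a difference of -0.61 ± 0.23, and Peg3 1417355_at, with -0.49 ± 0.16 (adjusted p = 0.976 for both). The arrays did not overlap in the sort comparisons at 10 of 27 higher in the wild types (37.0%, beside 10.2% of all probe sets) and at 16 of 27 in the mutants (59.3%, beside 6.88%).

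**Figure D4:**
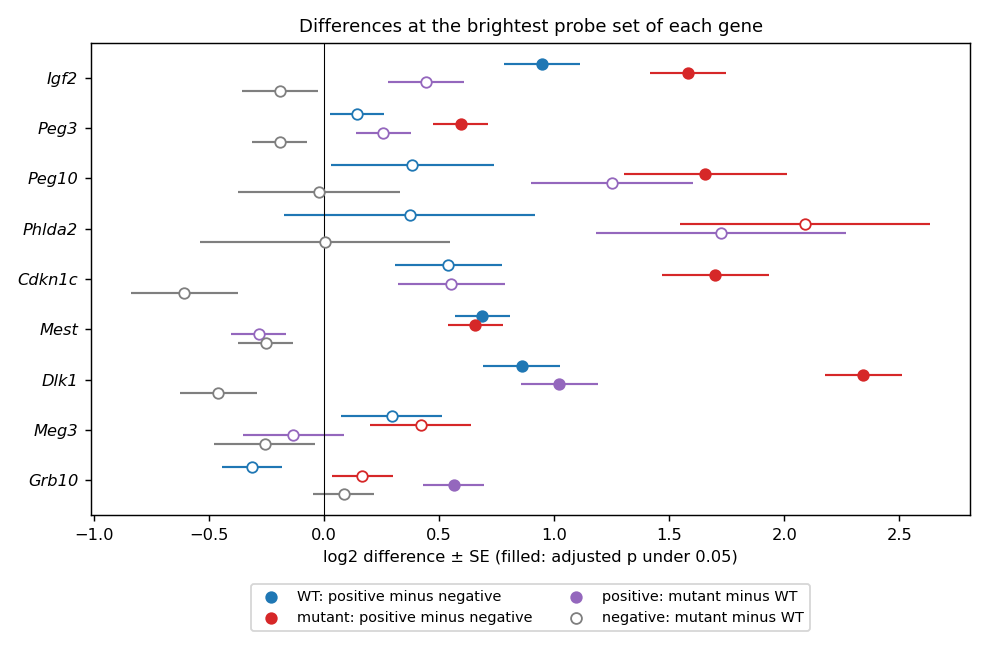
Differences in log2 expression with their standard errors (bars) for the brightest probe set of each of the 9 genes in the comparisons between groups, filled where the adjusted p was under 0.05. Dlk1, at 2.34 with the sort in the mutants, and Igf2, at 1.58, are called with the sort in both genotypes, and Phlda2, at 2.09, is drawn open, with an adjusted p of 0.0806.

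By role, the 5 genes read from the father's copy had 3 called with the sort in the wild types, all 5 in the mutants and 1 between the positive groups, with median differences of 0.69, 1.58 and 0.44. The 4 measured genes read from the mother's copy had 0, 1 and 1 called, with medians of 0.33, 1.06 and 0.56. Over all 18193 genes at their brightest probe set, 3.84%, 2.37% and 3.16% were called higher in these comparisons, and 2.65%, 1.74% and 3.11% lower. The difference between the 2 roles was not tested.

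The IGF pathway around Igf2 and Grb10 was measured at 21 of 23 listed genes. With the sort 3 rose and 1 fell in the wild types and 2 rose in the mutants. Between the positive groups 2 were higher and 2 lower in the mutants. The shares of all genes called in these comparisons are those given above by role. Igfbp4 rose by 0.95 ± 0.13 in the wild types (adjusted p = 0.00182) and by 0.79 ± 0.13 in the mutants (adjusted p = 0.0104). Igfbp5 was higher by 1.14 ± 0.23 in mutant than in wild-type positive cells (adjusted p = 0.0168). The other ligand, Igf1, rose by 4.32 ± 0.28 with the sort in the wild types (adjusted p = 5.38e-06) and was lower, with a difference of -4.07 ± 0.28 in mutant positive cells (adjusted p = 9.49e-06). The IGF carrier Igfbp3 was lower there too, with a difference of -3.52 ± 0.22 (adjusted p = 4.15e-06), and Irs1, a docking protein of the IGF receptor, was higher by 1.23 ± 0.21 (adjusted p = 0.00735). Igf2r, the imprinted receptor that clears Igf2, was higher by 1.37 ± 0.18 in positive than in negative mutant cells (adjusted p = 0.00236).

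Of 53 other imprinted genes 46 were measured, and 4 rose and 1 fell with the sort in the wild types, 5 rose and none fell in the mutants, and 2 were higher and 2 lower in mutant than in wild-type positive cells. Of all genes, 3.84%, 2.37% and 3.16% were called higher in these comparisons, and 2.65%, 1.74% and 3.11% lower. An unadjusted p under 0.05 was found at 12, 17 and 12 of the 46, beside 6727, 5159 and 7970 of all 45037 probe sets. These sets are unlike: the 46 are the brightest probe sets of their genes, while the 45037 include dim and unlisted ones. Their median difference was 0.04, 0.12 and 0.07 in these comparisons, beside -0.02, -0.03 and 0.01 over all genes. Asb4, a vascular gene of the Peg10 domain, rose by 1.24 ± 0.20 in the wild types (adjusted p = 0.00420) and 2.01 ± 0.20 in the mutants (adjusted p = 0.000642). Plagl1, a zinc finger regulator of other imprinted genes, rose by 1.15 ± 0.14 (adjusted p = 0.000762) and 0.91 ± 0.14 (adjusted p = 0.00676). Nnat and Magel2 were higher in mutant positive cells, by 1.35 ± 0.26 (adjusted p = 0.0143) and 1.12 ± 0.25 (adjusted p = 0.0286), and Gab1 and Cd81 were lower, with differences of -1.19 ± 0.17 (adjusted p = 0.00274) and -0.83 ± 0.18 (adjusted p = 0.0275).

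Calls among neighbours of the members on their chromosomes were most frequent in the Peg10 domain. Of all genes at their brightest probe set, 3.84% rose and 2.65% fell with the sort in the wild types. In the mutants these shares were 2.37% and 1.74%, and between the positive groups 3.16% were higher and 3.11% lower. In the Dlk1-Meg3 domain, of 4 measured among 7 listed, 1 rose in the mutants, Mirg, another maternal non-coding RNA, by 0.98 ± 0.22 (adjusted p = 0.0442). In the Peg10 domain, of 8 measured, 3 rose in the wild types (Pon3, Asb4 and Pon2), 2 were lower in mutant positive cells (differences of -1.65 ± 0.25 for Pon2 and -1.24 ± 0.22 for Pon3), and Asb4 rose in the mutants. The median difference of these 8 was 1 with the sort in the wild types, beside -0.02 over all genes. In the mutants it was 0.51, beside -0.03, and between the positive groups -0.09, beside 0.01. In the domains of H19, Igf2, Cdkn1c and Phlda2, of 11 measured, Cd81 rose with the sort in the wild types by 0.79 ± 0.18 (adjusted p = 0.0334). It was lower in mutant than in wild-type positive cells, as given above. None of the 11 was called by limma with the sort in the mutants. There 1 had an unadjusted p under 0.05, beside 5159 of all 45037 probe sets, dim ones among them. Around Mest, Peg3 and Grb10, 1 of 7 measured rose with the sort in the mutants, Klf14 by 0.73 ± 0.16 (adjusted p = 0.0374).

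Markers of other cell types, and genes induced by tissue dissociation, moved with these comparisons. In the mutants 8 of 10 cardiac and 7 of 11 lateral plate and allantois markers rose with the sort, beside 2.37% of all genes. This was the comparison in which most members rose. In mutant over wild-type positive cells 9 of the 10 and 5 of the 11 were higher, beside 3.16% of all genes. The mean of 8 neural and epithelial markers was 10.56 to 10.83 on negative and 7.15 to 8.36 on positive arrays. The mean of 14 visceral endoderm markers was 8.42 on mutant positive array 1 and 6.35 and 6.36 on the other two. Of 11 dissociation stress genes, 4 rose with the sort in the wild types, beside 3.84% of all genes. They were Atf3, by 2.19 ± 0.24 (adjusted p = 0.000295), Egr1, Junb and Dusp1. With the sort in the mutants 0 were called by limma. There 6 had an unadjusted p under 0.05, beside 5159 of all 45037 probe sets, dim ones among them. Between the positive groups 2 were lower in the mutants, beside 3.11% of all genes: Atf3, with a difference of -1.88 ± 0.24 (adjusted p = 0.00115), and Dusp1. The list's mean was 8.86 to 9.29 on wild-type positive, 8.54 to 8.78 on mutant positive and 7.90 to 8.38 on negative arrays. The part of these cell types and of dissociation in the members' differences was not tested.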

How the data were processed

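RNA of EYFP-positive and EYFP-negative cells from embryos with 2 genotypes was measured on 12 arrays, 3 a group. The authors deposited log2 expression values that were summarised and normalized with RMA, per the submitters' processing notes, and the version is not given in the sources used here. RMA quantile-normalizes arrays together and shrinks differences of dim probe sets. The 64 control probe sets of 45101 were left out. Of the other 45037, 34945 had 1 gene symbol in the platform's table, 932 had several and 9160 were unlisted.

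limma 3.58.1 in R 4.3.3 fitted 1 model with the 4 groups to all 45037 probe sets (8 residual degrees of freedom), and 5 comparisons were tested two-sided with Benjamini-Hochberg adjustment within each. The fit was tested on simulated data. The number of arrays, 3 a group, limits the precision. Arrays of 1 group correlated at 0.981 to 0.991 and no 2 arrays were identical.

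Arrays of the same number were checked for pairing by the correlation of their deviations from the group means. In the mutants it was 0.659, 0.414 and 0.520, so positive and negative arrays of the same number varied together. The labels give replicate numbers but state no pairing, and arrays of different numbers were not compared. The block thus rests on a pairing inferred from these data, and blocked values are given where they change a call. In the wild types it was 0.198, 0.0700 and 0.167.

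The members and gene lists were chosen with earlier results of these data known. All probe sets of the members are reported, and gene levels use the brightest probe set. Listed genes named as called were picked by smallest unadjusted p among those that pass, at most 4 for a list and comparison. Not all of these are named. Alternatives were quantile normalization, leaving dim probe sets out, 1 probe set or the mean per gene, only the compared groups, an intensity trend with robust variance, the replicate block, and arrays left out 1 at a time or both of number 1; leaving out both mutant arrays numbered 1 was chosen after seeing the data.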

Additional observations from a re-analysis of the deposited data

Results flagged for a closer look

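The positive-minus-negative difference of Dlk1 at probe set 1449939_s_at was larger in the mutants than in the wild types by 1.48 on the log2 scale, by a limma test of the difference itself (SE 0.24, adjusted p = 0.0101). It was called in every fit that left out 1 array at a time, and not without both mutant arrays numbered 1. Groups of 3 arrays are too small for a test of single arrays.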

How the results depend on the processing

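Of 135 results of the members, 104 stayed called or stayed uncalled in all alternatives, 9 lost a call in at least 1, and 22 gained one. Most of the 135 were uncalled to begin with. The calls were 4 with the sort in the wild types, 8 in the mutants, 3 between the positive groups and 1 between the sort differences. None changed sign while called, but uncalled differences could, such as Dlk1 1442724_at with the sort in the wild types (-0.16 to 0.07). With only the compared groups in the fit, the count of all probe sets called went from 1181 to 565 with the sort in the mutants and from 1989 to 960 between the positive groups. The replicate block gave 1848 in the mutants, 3001 against 2018 in the wild types and 878 against 573 for the difference between genotypes, with 41.5% against 29.8% of them higher. Without both wild-type arrays numbered 1 the counts were 962 in the wild types and 1303 between the positive groups; without both mutant arrays numbered 1, chosen after seeing the data, they were 657 in the mutants and 1313 between the positive groups. Leaving out 1 array gave 1272 to 2013, 699 to 1191, 1304 to 2095 and 385 to 626 for these 4 comparisons, and 0 to 1 for the negative cells. Of the 9 genes, 6 called in the mutants became 3 with only the compared groups and 3 without both mutant arrays numbered 1 (3 to 6 with 1 array out). Between the positive groups 2 became 4 with the mean of a gene's probe sets, 1 with only the compared groups, 1 without either pair numbered 1, and 1 to 3 with 1 array out. In the wild types 3 became 0 without both arrays numbered 1, and the difference between genotypes 1 became 0 without both mutant arrays numbered 1 (1 to 2 with 1 array out). The cause was not tested. In the wild types the block called Meg3 1452183_a_at, 1426758_s_at and 1436713_s_at (adjusted p = 0.00748, 0.00609 and 0.0347), and the last of these for the difference between genotypes (adjusted p = 0.0106). Deviations of same-numbered wild-type arrays correlated at 0.198, 0.07 and 0.167, lower than in the mutants, so their pairing is less clear. Probe sets near the arrays' 25th percentile, such as those of Peg10, limit what can be read from small differences.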

Other observations

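The genes whose profiles over the 12 arrays came closest to a member's, by root-mean-square difference of centred log2 values among probe sets at or above the median level, are given as description. For Dlk1 they were Col5a2 (0.212), Tbx20 (0.266) and Asb4 (0.277), and for Igf2 Mmp14 (0.192), Cald1 (0.206) and Nrp1 (0.210). For Cdkn1c they were Snai2 (0.205), Tmem158 (0.211) and Scarf2 (0.225), and for Mest Xbp1 (0.130), Bicd2 (0.154) and Cd151 (0.155). For Peg3 they were Ckap4 (0.111), Fam171a1 (0.115) and Khnyn (0.119), for Peg10 Spin2c (0.286), Capn6 (0.317) and Arap2 (0.325), and for Grb10 Scd2 (0.0578), Zfp512 (0.0649) and Fnta (0.0811).

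Of 11 other CIP/KIP inhibitors, cyclins and cyclin-dependent kinases, 2 fell with the sort in the wild types, beside 2.65% of all genes. They were Ccnd2, with a difference of -0.83 ± 0.20 (adjusted p = 0.0377), and Cdkn1a, with one of -0.84 ± 0.21 (adjusted p = 0.0449). None was called by limma with the sort in the mutants. There 4 had an unadjusted p under 0.05, beside 5159 of all 45037 probe sets, dim ones among them. Another list held 11 imprint regulators or parts of the let-7 and H19 pathway. Of these, 1 was higher in mutant than in wild-type positive cells, beside 3.16% of all genes. It was Dnmt3a, a DNA methyltransferase, higher by 0.94 ± 0.20 (adjusted p = 0.0235). With the sort in the mutants 1 fell, beside 1.74% of all genes: Dnmt3b, with a difference of -0.53 ± 0.12 (adjusted p = 0.0395).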
